A study of Mus musculus with 6 samples.

Results

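Aminoacyl-tRNA synthetases are the enzymes that join each amino acid to its tRNA. The series was searched for 36 of their genes by gene symbol, and all 36 were found among the 22880 genes measured. Of these, 20 are treated as cytosolic and 16, with symbols that end in 2, as mitochondrial. This division follows the symbol and does not show that each gene serves a single compartment. All 36 passed the filter on low counts, as did 12014 genes in total. The cells were MC-38 mouse colon adenocarcinoma cells that carry green fluorescent protein (GFP). They had been grown as orthotopic tumors in the cecum wall of C57BL/6J mice and were sorted as living, GFP-positive cells negative for CD45 (leukocytes) and CD31 (endothelium). According to the labels, both groups had been transduced with pLKO.1-puro, a vector for short hairpin RNAs, and neither had been passaged in vivo. The 3 HIF-1α-KD libraries came from cells with a knockdown of HIF-1α, a transcription factor of the response to hypoxia, and the 3 Mock libraries from control cells. The labels say neither whether each library is a separate tumor nor whether tumors were pooled, so the p-values measure the spread between these libraries, which may be technical.

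The cytosolic synthetases charge the tRNAs that are read on cytosolic ribosomes, and several of them sit with scaffold proteins in the multisynthetase complex. The mitochondrial synthetases are also encoded in the nucleus, but charge the tRNAs of the mitochondrion, whose ribosomes make a small set of respiratory chain subunits. Many cytosolic synthetase genes are known targets of ATF4, the transcription factor of the integrated stress response, which is switched on when amino acids are scarce or proteins misfold.

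Reads counted on genes were between 19845852 and 30809140 per library. Hif1a had 6914, 5424 and 4945 (Mock) against 697.3, 3142 and 1928 (HIF-1α-KD) normalized reads, without overlap of the groups. Its log2 fold change (HIF-1α-KD minus Mock) was -1.82 (unadjusted p = 0.0036 and adjusted p = 0.219 by limma). The knocked-down gene itself was thus over an adjusted p of 0.05. A normalized read count is the number of reads on a gene divided by a factor for its library. Genes used as markers of other cells were present at different levels in single libraries. Whether their reads came from such cells or from the tumor cells was not tested. The 8 leukocyte markers, of which 7 passed the filter, summed to between 30.8 and 37.5 FPKM (the read count scaled to gene length and library size) in Mock, and to 17.7, 20.4 and 75.02 FPKM in HIF-1α-KD libraries 1, 2 and 3. The T cell gene Cd3e had under 10 reads in every library. The 6 fibroblast and pericyte markers, all tested, summed to between 543 and 976 FPKM in Mock and between 411 and 702 FPKM in HIF-1α-KD libraries, with Dcn as the most abundant. Of these 6, 3 had a log2 fold change (HIF-1α-KD minus Mock) above 0, namely Rgs5 (1.15), Pdgfrb (0.59) and Pdgfra (0.03), and 3 below it, namely Dcn (-0.38), Lum (-0.16) and Dpt (-0.83). Rgs5 and Pdgfrb had unadjusted p-values of 0.0185 and 0.0461 in limma (adjusted p = 0.315 and 0.387). That of Rgs5 was over 0.05 without Mock library 1 or HIF-1α-KD library 1, and that of Pdgfrb in edgeR, under TMM scaling, after a correction for length and GC content and when any single library other than Mock library 2 was left out. The 5 endothelial markers, 3 of them tested, summed to between 3.82 and 6.33 FPKM over all libraries, and Tie1 had under 10 reads in each. The log2 fold changes of the 3 tested were -0.84 for Cdh5 (unadjusted p = 0.0130 and adjusted p = 0.294 by limma), 0.26 for Pecam1 and 1.26 for Tek. The 5 epithelial markers were nearly absent, although the label is that of an adenocarcinoma. Only 2 of them passed the filter, and their sum was at most 2.15 FPKM except in Mock library 3, with 8.69 FPKM.

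Promoters of the synthetases were searched for the core of the C/EBP-ATF response element, TGATGNAA, since it is the type of sequence that ATF4 binds. The RefSeq promoter sequences used here (GRCm38.p6, 250 bases before to 50 bases after the start of transcription) held 13 of the cytosolic and 14 of the mitochondrial genes. There was no entry for Cars, Hars, Lars, Nars, Rars, Vars, Wars, Hars2 and Pars2. On either strand, 5 of the 13 cytosolic promoters (38.5%) and 0 of the 14 mitochondrial ones held TGATGNAA, against 2.75% of the 9068 tested genes with a promoter sequence. A match from each of these 5 genes is shown with 10 bases on each side, 5′ to 3′ on the strand of the match, with the motif in capitals, because only these 5 genes among the 13 held the motif.
Aars, chr8:111033841-111033868, minus strand: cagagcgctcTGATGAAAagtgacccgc
Gars, chr6:55037961-55037988, minus strand: gcccggtgcaTGATGAAAtagcgcagcc
Iars, chr13:49682127-49682154, minus strand: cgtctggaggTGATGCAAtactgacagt
Tars, chr15:11399656-11399683, plus strand: gctaaccagcTGATGCAAcgggactcct
Yars, chr4:129189896-129189923, plus strand: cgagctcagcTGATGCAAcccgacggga

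In Iars, Tars and Yars the match lay within 15 bases of the start of transcription. The match in Gars began 30 bases before the start. The core of the hypoxia response element, to which HIF-1 binds, was searched as ACGTG and as GCGTG on either strand, which differ in their first letter alone. They overlapped 0 of the matches shown. ACGTG was found in 6 of 13 cytosolic promoters (46.2%), in 4 of 14 mitochondrial ones (28.6%) and in 29.3% of tested genes. GCGTG was found in 10 of 13 (76.9%), in 10 of 14 (71.4%) and in 56.8%, respectively. A match describes these letters only, and binding was not measured.

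The cytosolic synthetases were transcribed at high levels and the mitochondrial ones at lower levels. The mean FPKM in Mock cells, which is a level per length of transcript, had a median of 130 over the 20 cytosolic genes and of 12.1 over the 16 mitochondrial genes, beside 13.4 over all genes tested. In HIF-1α-KD cells the medians were 144, 12.97 and 14.2 FPKM. The highest cytosolic levels in Mock were those of Vars for valine, with 417 ± 111 FPKM (SD, n = 3), Aars for alanine, with 251 ± 51.1 FPKM, and Qars for glutamine, with 224 ± 29.2 FPKM. Vars lay above Aars in each Mock library, with a narrow gap between the lowest value of Vars and the highest of Aars. The ranges of Aars and Qars overlapped, as did those of Qars and Sars, the next in rank. The lowest were Hars for histidine, with 42.5 ± 4.54 FPKM, Wars for tryptophan, with 45.0 ± 4.26 FPKM, and Lars for leucine, with 47.3 ± 0.557 FPKM, with ranges that overlapped from each gene to the next.

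Among the mitochondrial genes, Lars2 for leucine stood far above the rest with 268 ± 172 FPKM in Mock. The next were Tars2 for threonine, with 46.6 ± 6.27 FPKM, and Rars2 for arginine, with 32.8 ± 3.96 FPKM, whose range overlapped that of Iars2. At the low end were Ears2 for glutamate, with 4.34 ± 0.485 FPKM, Pars2 for proline, with 2.27 ± 0.940 FPKM, and Mars2 for methionine, with 0.541 ± 0.157 FPKM. The range of Ears2 lay within that of Sars2, so its place in this order is not separated. The plot of transcript levels shows this gap between the compartments and the width of the mitochondrial range.

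**Figure D1:**
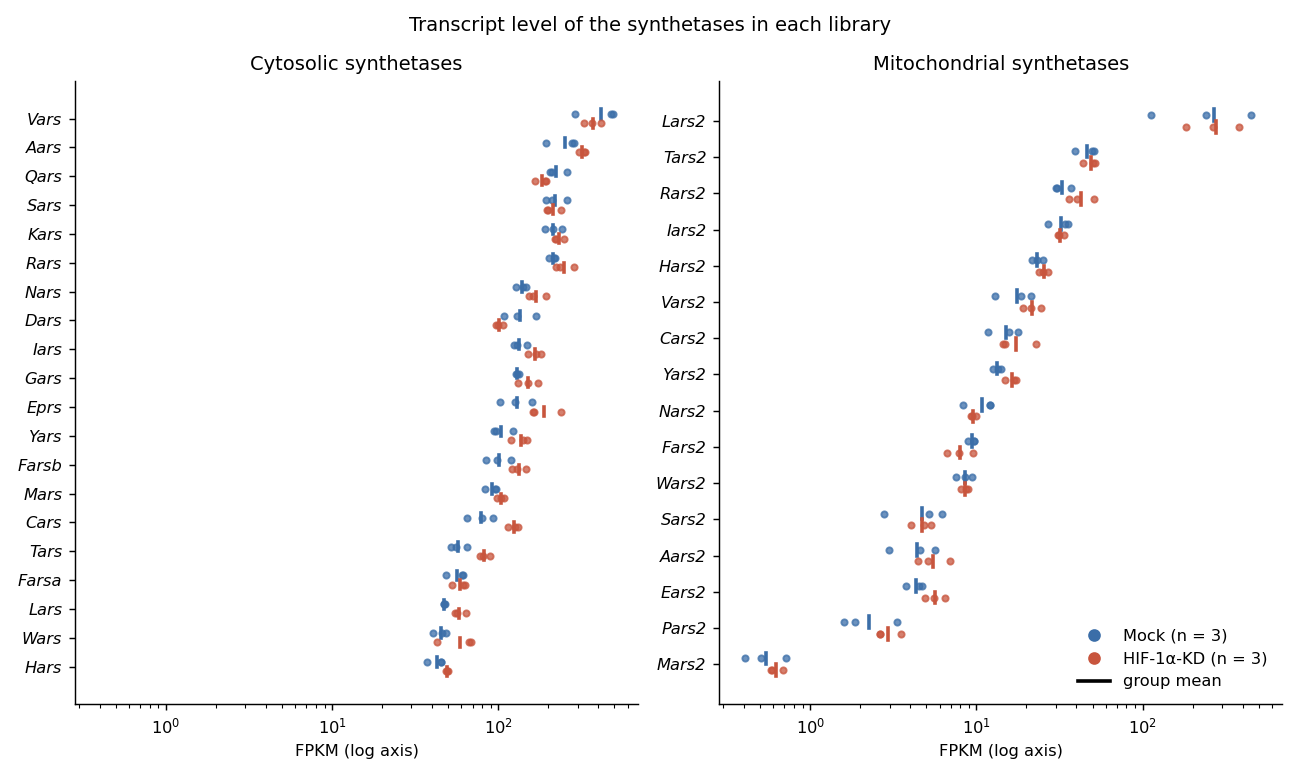
FPKM of each synthetase on a log axis, for cytosolic (left) and mitochondrial genes (right), ordered by their mean in Mock. Points are libraries (3 Mock in blue, 3 HIF-1α-KD in red) and vertical bars are group means. Cytosolic means in Mock lie between 42.5 and 417 FPKM and mitochondrial ones between 0.541 and 268 FPKM, with Lars2 as the mitochondrial gene of the widest spread.

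Reads on the 20 cytosolic genes made up 0.459%, 0.4995% and 0.552% of the reads in Mock libraries 1 to 3 and 0.545%, 0.548% and 0.625% in HIF-1α-KD libraries 1 to 3. The share of Mock library 3 thus lay within the range of the HIF-1α-KD libraries. Without Lars2, the mitochondrial genes took between 0.0377% and 0.0426% in Mock and between 0.0417% and 0.0444% in HIF-1α-KD libraries. For 16 pairs of a cytosolic and a mitochondrial gene of the same amino acid, the ratio of the 2 FPKM values had a median of 7.17 in Mock and of 7.95 in HIF-1α-KD cells. It ran from 0.243 for Lars to Lars2, the only pair with less cytosolic transcript, to 177 for Mars to Mars2.

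The mean log2 ratio was higher in HIF-1α-KD cells for 12 of the 16 pairs. Differences near 0 occurred in both directions, as for Lars to Lars2 (0.10) and Mars to Mars2 (-0.07). Eprs enters the pairs of both Ears2 and Pars2, so the pairs are not independent. Tars to Tars2 was 1.31, 1.13 and 1.26 (Mock) against 1.78, 1.56 and 1.76 (HIF-1α-KD). Vars to Vars2 was 22.4, 22.9 and 25.6 (Mock) against 17.0, 17.2 and 17.2 (HIF-1α-KD). The groups did not overlap in these 2 pairs, in opposite directions, with p = 0.1 in a two-sided exact permutation test, the smallest value that 3 against 3 libraries can give (adjusted p = 0.6 over the 16 pairs).

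The comparison of HIF-1α-KD with Mock cells asks which transcripts differ in tumor cells with less HIF-1α. No synthetase had an adjusted p under 0.05 by limma, edgeR or DESeq2. In limma, 1 gene was higher (0.00832%) and 46 were lower (0.383%) among the 12014 genes at that threshold. edgeR called 47 of all genes (0.391%) and DESeq2 283 (2.36%). At an unadjusted p under 0.05, limma found 3 cytosolic synthetases higher in HIF-1α-KD cells (Cars, Tars and Eprs), 1 lower (Dars) and 0 mitochondrial ones. Of all genes, 7.04% were higher, 5.69% lower and 12.7% either at that limit, so the 4 of 36 members (11.1%) were close to the background. By compartment the share was 20% of the 20 cytosolic genes, which is 4 genes, and 0% of the 16 mitochondrial ones. edgeR gave 4 and DESeq2 5 members at an unadjusted p under 0.05, beside 12.4% and 13% of all genes. All log2 fold changes below are of the normalized count plus 1, HIF-1α-KD minus Mock, and a count from bulk RNA cannot tell a different number of expressing cells from a different amount of RNA per cell.

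Cars, the cysteine enzyme (ENSMUSG00000010755, chromosome 7, 143557230 to 143600090, GRCm38), had 1736, 2021 and 2491 (Mock) against 3431, 2838 and 3156 (HIF-1α-KD) normalized reads. All HIF-1α-KD libraries were above all Mock libraries. Its log2 fold change was 0.60 with an SE of 0.17 (unadjusted p = 0.0061 and adjusted p = 0.250 by limma), and stayed between 0.48 and 0.74 when single libraries were dropped. Tars, the threonine enzyme (ENSMUSG00000022241, chromosome 15, 11382301 to 11399665), had 3501, 3544 and 4339 (Mock) against 5071, 5056 and 5572 (HIF-1α-KD) normalized reads. The groups again did not overlap. Its log2 fold change was 0.47 with an SE of 0.14 (unadjusted p = 0.00909 and adjusted p = 0.275 by limma), with a range of 0.41 to 0.57 when a library was left out. Cars and Tars had an unadjusted p under 0.05 in every alternative fit.

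Eprs encodes the fused enzyme for glutamate and proline (ENSMUSG00000026615, chromosome 1, 185363044 to 185428360). It had 7684, 8849 and 11880 (Mock) against 11720, 11350 and 16590 (HIF-1α-KD) normalized reads. Mock library 3 was above 2 of the HIF-1α-KD libraries, so the groups overlapped. The log2 fold change was 0.48 with an SE of 0.21 (unadjusted p = 0.0483 and adjusted p = 0.391 by limma), and the unadjusted p was over 0.05 in edgeR, under TMM scaling, after a correction for length and GC content, and without Mock library 1, Mock library 2 or HIF-1α-KD library 3.

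Dars and Qars, both in the multisynthetase complex, had lower counts in HIF-1α-KD cells. Dars, for aspartate (ENSMUSG00000026356, chromosome 1, 128363707 to 128417368), had 7135, 4268 and 5438 (Mock) against 4068, 3826 and 4162 (HIF-1α-KD) normalized reads. The HIF-1α-KD libraries were close together and lay below all Mock libraries, with Mock library 2 only slightly above them. The log2 fold change was -0.45 with an SE of 0.19 (unadjusted p = 0.0418 and adjusted p = 0.382 by limma), and -0.26 without Mock library 1. Its unadjusted p was over 0.05 when any library except Mock library 2 was left out, under scaling to library size, and after the length and GC correction. Qars (ENSMUSG00000032604, chromosome 9, 108507706 to 108515941) had 7657, 5861 and 6031 (Mock) against 4745, 5301 and 5348 (HIF-1α-KD) normalized reads. These groups did not overlap either, with a log2 fold change of -0.34 with an SE of 0.15 (unadjusted p = 0.0521 and adjusted p = 0.396 by limma). The unadjusted p of Qars was under 0.05 in edgeR, in DESeq2, under TMM scaling, after the length and GC correction, and without Mock library 2. The plot of counts by library shows the replicate behind each value.

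**Figure D2:**
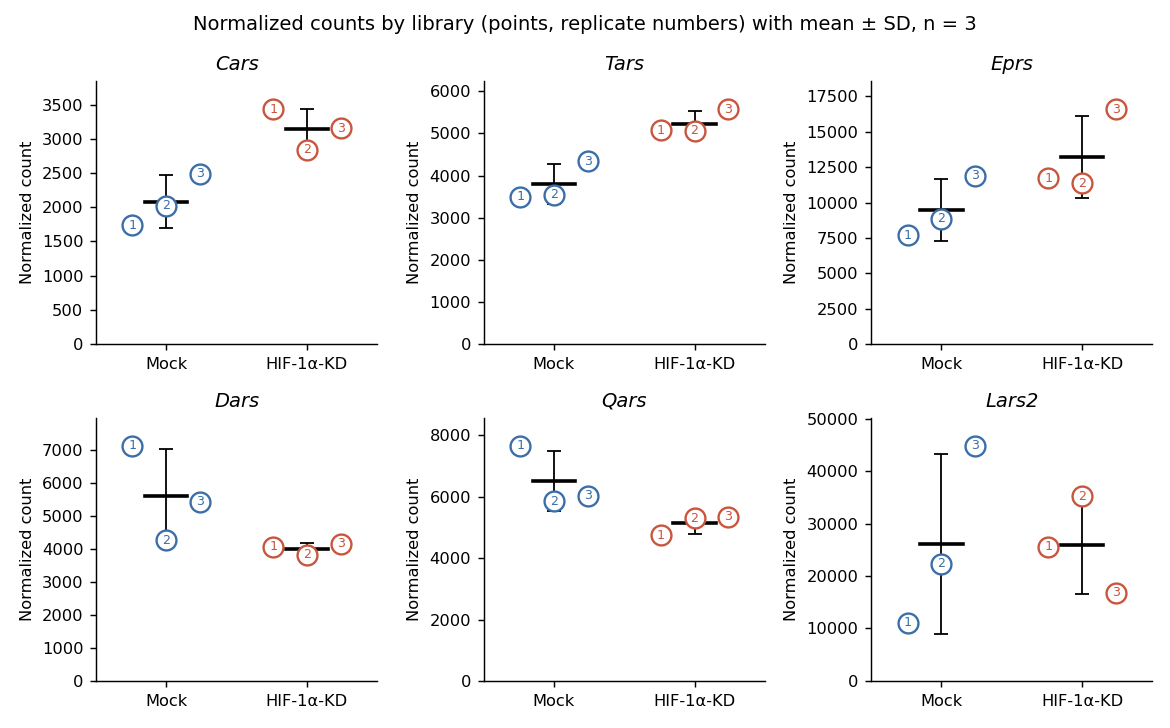
Normalized counts of 6 synthetases in the 3 Mock and the 3 HIF-1α-KD libraries. Circles are libraries with their replicate numbers, thick lines are means and error bars are SD. Cars and Tars lie higher and Dars and Qars lower in each HIF-1α-KD library than in each Mock library, Eprs overlaps through Mock library 3, and Lars2 varies most within the groups.

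Over all 20 cytosolic genes, 16 had a log2 fold change above 0 and 4 below it, with a median of 0.19 and a range of -0.45 to 0.60. Over all genes tested, 52.7% were above 0 and the median was 0.02. The 4 genes below 0 were Dars, Qars, Vars and Sars. Groups did not overlap for 4 higher genes (Cars, Tars, Lars and Nars) and for 2 lower genes (Dars and Qars), against 10.4% and 8.75% of all genes. Lars had 4742, 4338 and 4645 (Mock) against 5377, 5030 and 5867 (HIF-1α-KD) normalized reads, which is a log2 fold change of 0.24 with an SE of 0.13 (adjusted p = 0.474 by limma). Lars also had the lowest spread within groups of the cytosolic genes, with an SD of 0.09 on the log2 scale, beside a median SD of 0.16 over these genes and 0.25 over all genes tested.

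Vars had the highest spread of the cytosolic genes (SD 0.32 on the log2 scale). It had 10290, 16260 and 16870 (Mock) against 14380, 10780 and 12130 (HIF-1α-KD) normalized reads, so Mock library 1 was the lowest of all. The log2 fold change was -0.20 with an SE of 0.21 (adjusted p = 0.743 by limma) and became -0.42 without Mock library 1, with an unadjusted p under 0.05. Of the other cytosolic genes at the ends of the range of levels, Aars had a log2 fold change of 0.32, Wars of 0.31 and Hars of 0.16, each with overlapping groups. Leaving out single libraries gave 0.15 to 0.43 for Aars, 0.20 to 0.51 for Wars and 0.08 to 0.22 for Hars. Wars reached an unadjusted p under 0.05 without HIF-1α-KD library 1, and Aars without Mock library 3.

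The subgroups of the cytosolic genes were described by their medians, without a test. The 9 genes of class I enzymes, which share a Rossmann-type catalytic fold, had a median log2 fold change of 0.24, and the 10 of class II enzymes, built around an antiparallel sheet, of 0.16. Eprs joins both classes and was left out of these. The 8 genes of enzymes in the multisynthetase complex had a median of 0.13, with both of the lowest values (Dars and Qars) and also Eprs among them, and the 12 outside it had a median of 0.27. The 5 genes with TGATGNAA in the promoter had log2 fold changes of 0.32 (Aars), 0.16 (Gars), 0.26 (Iars), 0.47 (Tars) and 0.33 (Yars), all above 0, with a median of 0.32. Among the 8 cytosolic genes with a promoter sequence but no match, 5 were above 0 and the median was 0.03. Of the 5 genes with TGATGNAA only the groups of Tars did not overlap (20%). Of the 8 without it, those of Dars and Qars did not (25%), beside 19.2% of all genes in either direction. The 6 cytosolic genes with ACGTG had a median of 0.33 and the 7 without it of 0.01, and 3 of those with ACGTG (Aars, Iars and Tars) also hold TGATGNAA. The order was the opposite for GCGTG, with a median of 0.13 for the 10 cytosolic genes with it and of 0.32 for the 3 without. In the mitochondrial genes the medians were 0.13 with and 0.14 without ACGTG, and 0.16 with and 0.08 without GCGTG.

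**Figure D3:**
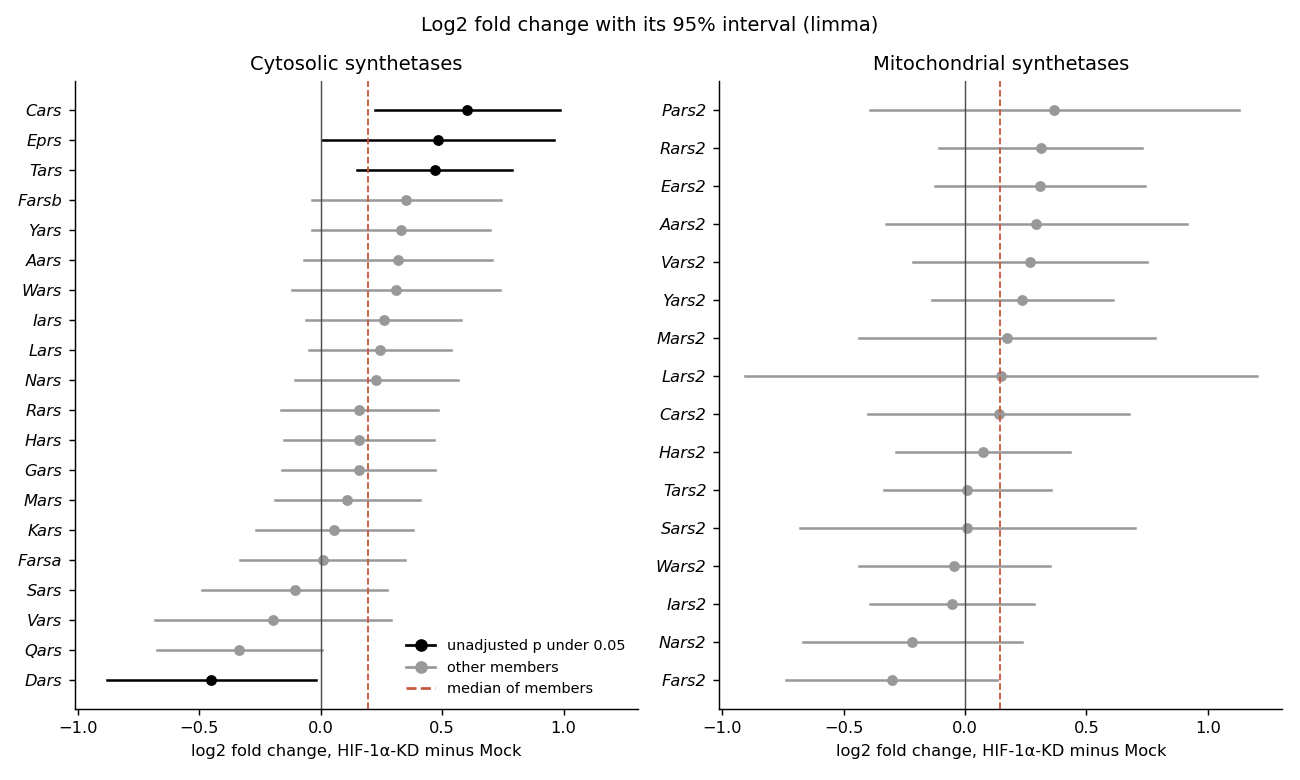
Log2 fold change (HIF-1α-KD minus Mock, normalized count plus 1) of each synthetase with its 95% interval from limma, cytosolic genes left and mitochondrial genes right. Black marks an unadjusted p under 0.05, and dashed lines are the medians (0.19 and 0.14). Of the cytosolic genes 16 of 20 and of the mitochondrial genes 12 of 16 lie right of 0, and only the intervals of Cars, Tars, Eprs and Dars exclude 0.

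The cytosolic genes did not separate the groups as a set. For each gene, the log2 level in a library was taken relative to its mean over the 6 libraries. The median of these values over the 20 genes was -0.17, -0.19 and 0.06 in Mock libraries 1 to 3 and 0.06, 0.05 and 0.23 in HIF-1α-KD libraries 1 to 3. Mock library 3 thus stood with HIF-1α-KD libraries 1 and 2, and HIF-1α-KD library 3 was above the rest. HIF-1α-KD library 3 was also the library with 75.02 FPKM of summed leukocyte markers, and Mock library 3 the one with 8.69 FPKM of epithelial and 976 FPKM of fibroblast and pericyte markers. The part of these markers in the levels of the synthetases was not tested. Without HIF-1α-KD library 3, 2 cytosolic genes were higher at an unadjusted p under 0.05 (beside 5.62% of all genes), and without Mock library 3, 7 were (beside 6.29%).

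Across the mitochondrial genes the median log2 fold change was 0.14, with 12 genes above and 4 below 0 and a range of -0.30 to 0.37. The number above 0 was 9 of 16 in edgeR, in DESeq2 and after the length and GC correction, and the median was 0.09 in edgeR and 0.05 after that correction. Leaving out Mock library 1, in which their median relative log2 level was -0.26 beside values of -0.01 to 0.11 in the other libraries, reduced the median of 0.14 to 0.03. The highest were Pars2 (0.37), Rars2 (0.31) and Ears2 (0.31), and the lowest Fars2 (-0.30), Nars2 for asparagine (-0.22) and Iars2 for isoleucine (-0.05). With each library left out in turn, Pars2 ran from 0.17 to 0.70, Rars2 from 0.18 to 0.43 and Ears2 from 0.19 to 0.42, while Fars2 ran from -0.42 to -0.20 and Nars2 from -0.38 to -0.11. None had an unadjusted p under 0.05 in limma, and their adjusted p-values were between 0.523 and 0.992. Groups did not overlap for 2 of the 16 genes (12.5%), both higher, beside 10.4% higher and 19.2% in either direction over all genes. Ears2 had 329.9, 383.7 and 391.4 (Mock) against 540.5, 393.3 and 444.7 (HIF-1α-KD) normalized reads, where the gap between the groups was under 2 normalized counts. Yars2, for tyrosine, had 483.8, 407.7 and 465.1 (Mock) against 497.9, 544.4 and 554.5 (HIF-1α-KD) normalized reads, which is a log2 fold change of 0.24.

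Lars2 was the most variable synthetase. It had 11110, 22340 and 44810 (Mock) against 25610, 35190 and 16770 (HIF-1α-KD) normalized reads, so Mock held both the lowest and the highest value. The SD within groups was 0.81 on the log2 scale, above that of 93.1% of the genes tested. The log2 fold change of 0.15 with an SE of 0.46 had a 95% interval from -0.91 to 1.20, and its sign turned in edgeR and DESeq2. In the annotation, 0.196% of the words of 50 bases in Lars2 transcripts were shared with other genes. Sequence outside the annotated transcripts was not searched, and the source of the spread was not tested. Mars2 (0.17) and Tars2 (0.01) also had intervals that held 0 well inside them, and their signs depended on the fit.

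Fars2, the phenylalanine enzyme of mitochondria (ENSMUSG00000021420, chromosome 13, 36117412 to 36726280), had 449.3, 385.7 and 444.5 (Mock) against 297.6, 408.9 and 337.3 (HIF-1α-KD) normalized reads. HIF-1α-KD library 2 lay within the range of Mock. Nrn1, for the neuronal surface protein neuritin, lies within the bounds of Fars2 on the opposite strand and had 630.3, 471.8 and 639 (Mock) against 24.93, 62.35 and 94.72 (HIF-1α-KD) normalized reads. The annotated transcripts of the 2 genes have 454 words of 50 bases in common, and Fars2 shares 8.85% of its words with other genes. The paper's methods name a stranded library kit, which keeps the strand of the RNA. Whether the counting used strand is not given in the sources used here. The value of Fars2 is therefore uncertain. In total, 10 of the 36 genes overlapped a protein-coding gene on the opposite strand and 8 shared over 5% of their 50-base words with other genes, led by Iars2 with 22.7% (mostly with Rab3gap2) and Aars with 13.8% (mostly with Exosc6). Hars and Hars2 lie head to head on chromosome 18, with 5.95% and 3.37% shared.

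Cytosolic phenylalanyl-tRNA synthetase is built from an alpha subunit, Farsa, and a beta subunit, Farsb. The ratio of their FPKM values, Farsb to Farsa, was 2.01, 1.41 and 1.94 (Mock) against 1.98, 2.45 and 2.32 (HIF-1α-KD). The groups overlapped, and a two-sided exact permutation test gave p = 0.2. The log2 fold change was 0.01 for Farsa and 0.35 for Farsb, with limma adjusted p-values of 0.989 and 0.439.

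Other genes that serve the charging and use of tRNA were taken from lists. Of the 3 scaffolds of the multisynthetase complex, Aimp1 had a log2 fold change of -0.26, Aimp2 of -0.26 and Eef1e1 of 0.05, and 0 of 3 had an unadjusted p under 0.05 in limma, edgeR or DESeq2. Aimp2 had 2120, 2078 and 2827 (Mock) against 1935, 1945 and 1926 (HIF-1α-KD) normalized reads, all of which lay below Mock. In mitochondria, glutaminyl-tRNA is made from glutamyl-tRNA by an amidotransferase, and its subunit genes had log2 fold changes of 0.32 (Gatb), 0.00 (Gatc) and 0.23 (Qrsl1). Mtfmt, which formylates the initiator methionyl-tRNA, had -0.06. None of these 4 had an unadjusted p under 0.05 in limma, edgeR or DESeq2.

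In the selenocysteine route, in which serine on its tRNA is converted to selenocysteine, 1 of 4 genes was lower and 1 higher at an unadjusted p under 0.05 in limma, beside 5.69% and 7.04% of all genes. Pstk, the kinase of seryl-tRNA, had 574.9, 416.3 and 475.9 (Mock) against 378.8, 286.6 and 316.5 (HIF-1α-KD) normalized reads, which is a log2 fold change of -0.57 with an SE of 0.20 (unadjusted p = 0.0194 and adjusted p = 0.320 by limma). Secisbp2, which binds the selenocysteine insertion element, had 232.7, 311.0 and 298.4 (Mock) against 359.5, 378.9 and 502.5 (HIF-1α-KD) normalized reads, which is a log2 fold change of 0.55 with an SE of 0.21 (unadjusted p = 0.0303 and adjusted p = 0.352 by limma). The groups of both genes did not overlap, as was so for 8.75% (lower) and 10.4% (higher) of all genes. Neither call held throughout. The unadjusted p of Pstk was over 0.05 without Mock library 1 or HIF-1α-KD library 2 (at most 0.0802) and after the length and GC correction. That of Secisbp2 was over 0.05 without Mock library 1, HIF-1α-KD library 2 or HIF-1α-KD library 3 (at most 0.117). Sepsecs, the selenocysteine synthase, had a log2 fold change of 0.07 and Eefsec, the elongation factor of the route, of -0.17. Among genes of editing and of tRNA end repair, Aarsd1 (-0.06), Prorsd1 (-0.17), Dtd1 (-0.31), Dtd2 (-0.13) and Trnt1 (0.03) had no unadjusted p under 0.05 in the main limma test or DESeq2. Dtd1 had an unadjusted p of 0.0479 in edgeR and of 0.0482 in limma under TMM scaling, and its groups did not overlap.

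Of the 6 elongation factor genes, limma gave 1 as lower at an unadjusted p under 0.05, beside 5.69% of all genes. Eef1a1, which carries charged tRNA to the cytosolic ribosome, had 541200, 351100 and 399500 (Mock) against 273600, 287100 and 284700 (HIF-1α-KD) normalized reads, without overlap. Its log2 fold change was -0.59 with an SE of 0.22 (unadjusted p = 0.0243 and adjusted p = 0.337 by limma), opposite in sign to the median of the cytosolic synthetases. The unadjusted p was over 0.05 without Mock library 1 or any of the HIF-1α-KD libraries (at most 0.0658), and was 0.108 in the limma fit without the filter on low counts. Its exchange factor subunits had log2 fold changes of -0.24 (Eef1b2), 0.14 (Eef1d) and -0.36 (Eef1g, with an unadjusted p of 0.0617 in limma, 0.0407 in edgeR and 0.0347 in DESeq2), and the mitochondrial factors of 0.18 (Tufm) and -0.06 (Tsfm). The synthetase-like gene Tarsl2, which is not counted among the 36, had a log2 fold change of -0.45 with overlapping groups.

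Because ATF4 controls many cytosolic synthetase genes, its own transcript, the kinases upstream of it and its other targets were described too. Atf4 had 9366, 8410 and 11310 (Mock) against 9187, 9843 and 10570 (HIF-1α-KD) normalized reads, which is a log2 fold change of 0.03. Atf4 is largely regulated in translation, which these libraries do not measure. Of the 4 kinases that phosphorylate eIF2α, 2 were higher at an unadjusted p under 0.05 in limma, beside 7.04% of all genes. Eif2ak3 (PERK, the sensor of the endoplasmic reticulum) had 554.0, 729.2 and 542.4 (Mock) against 1042, 990.4 and 838.6 (HIF-1α-KD) normalized reads, which is a log2 fold change of 0.66 with an SE of 0.18 (unadjusted p = 0.00560 and adjusted p = 0.245 by limma). Eif2ak4 (GCN2, the sensor of uncharged tRNA) had 382.9, 661.3 and 520.6 (Mock) against 945.9, 703.9 and 805.1 (HIF-1α-KD) normalized reads, which is a log2 fold change of 0.67 with an SE of 0.23 (unadjusted p = 0.0166 and adjusted p = 0.312 by limma). Without HIF-1α-KD library 1, the unadjusted p of Eif2ak4 was 0.0505. Neither gene had overlapping groups, as was so for 10.4% of all genes in that direction. Eif2ak1 and Eif2ak2 had log2 fold changes of 0.29 and 0.23.

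Of 26 other ATF4 target genes, 24 were tested, and 19 of these had a log2 fold change above 0, with a median of 0.20, close to the 0.19 of the cytosolic synthetases. At an unadjusted p under 0.05 in limma, 2 were higher (Sesn2 and Gpt2) and 2 lower (Cebpb and Eif4ebp1), which is 16.7% beside 12.7% of all genes. Each of these 4 calls ended when a library was left out. This was so without Mock library 1, Mock library 2, HIF-1α-KD library 2 or HIF-1α-KD library 3 for Sesn2 (unadjusted p of at most 0.124 in limma). Gpt2 lost its call without Mock library 2 or HIF-1α-KD library 3 (at most 0.0806). Cebpb lost it without Mock library 2, Mock library 3, HIF-1α-KD library 1 or HIF-1α-KD library 2 (at most 0.109), and Eif4ebp1 without HIF-1α-KD library 2 (0.0561). Sesn2 and Gpt2 were over that limit after the length and GC correction too, and Cebpb under scaling to library size. The highest log2 fold changes were 0.72 for the transcription factor Atf5 (unadjusted p = 0.0613 in limma and 0.0367 in DESeq2), 0.47 for Sesn2, a leucine-responsive inhibitor of mTORC1, and 0.39 for Gpt2, the mitochondrial alanine transaminase. The lowest were -0.58 for the transcription factor Cebpb, -0.50 for Ppp1r15a, a phosphatase subunit that reverses eIF2α phosphorylation, and -0.49 for Eif4ebp1, an inhibitor of translation initiation. The median relative log2 level of these 24 genes was -0.10, -0.23 and 0.13 in Mock libraries 1 to 3 and 0.02, 0.01 and 0.23 in HIF-1α-KD libraries 1 to 3. Mock library 3 and HIF-1α-KD library 3 were the highest of their group, as for the cytosolic synthetases, while the mitochondrial synthetases had 0.00 in both of these libraries.

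**Figure D4:**
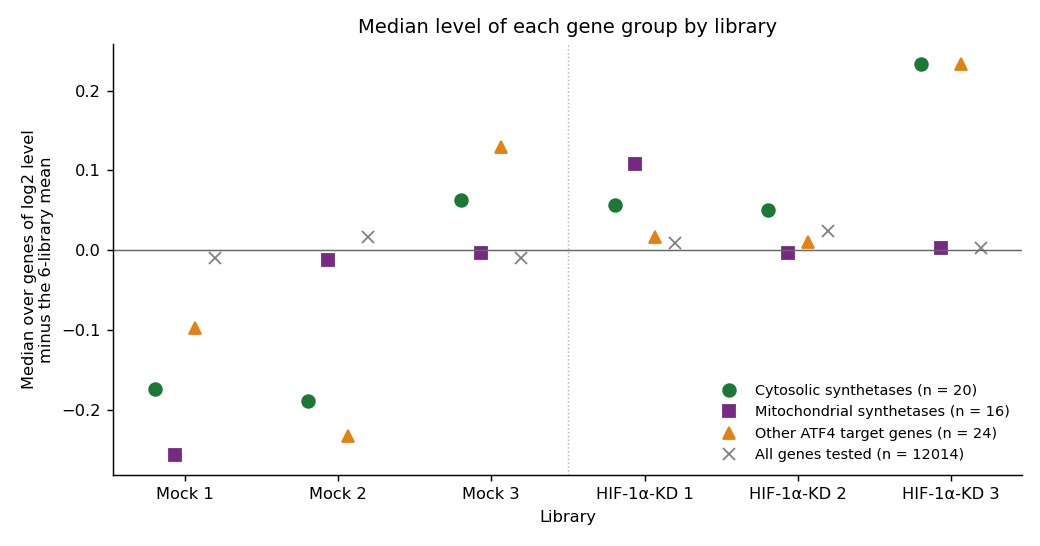
Median log2 level relative to the 6-library mean of each gene, by library, for the 20 cytosolic synthetases (circles), the 16 mitochondrial synthetases (squares), 24 other ATF4 target genes (triangles) and all 12014 genes tested (crosses). Cytosolic synthetases and ATF4 targets are highest in HIF-1α-KD library 3 (0.23 each), and Mock library 3 lies above HIF-1α-KD libraries 1 and 2 for both, while all genes stay near 0.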

How the data were processed

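RNA of 3 Mock and 3 HIF-1α-KD samples of sorted MC-38 tumor cells was compared, grouped by the knockdown in their labels. Per the methods, the authors used STAR for alignment of single-end reads of polyadenylated RNA, featureCounts for counting and DESeq2 for testing. Their stated reference is GRCh38, a human assembly, whereas the submitters' processing notes name GRCm38, STAR and edgeR and the table holds mouse Ensembl identifiers. The authors deposited 1 table with 22880 genes. The deposited signal is the normalized count, for which the authors scaled the reads on a gene by a factor per library and kept 4 significant digits. FPKM values of the authors were used for levels. The deposited GC content is a fraction per gene, used with the deposited gene width. The deposited log2 ratio, p-value and false discovery rate are the authors' own comparison and were not used.

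Reads were recovered from the normalized counts, and 100% of values up to 300 reads were whole within 0.2. Genes were filtered with filterByExpr of edgeR 4.0.16 (minimum count of 10) on these reads, which kept 12014. The main test was limma 3.58.1 (log2 of the normalized count plus 1, with the trend of variance on mean), two-sided, adjusted by Benjamini and Hochberg over all genes tested. The quasi-likelihood test of edgeR, planned for a table of whole counts, and DESeq2 1.42.0 were run on the recovered reads as alternatives. Others were the scaling (TMM, library size), no filter, pseudocounts of 0.1 and 10, a block for replicate number, leaving out each library, and a loess correction for length and GC content (span of 0.5). Replicate numbers are shared by the groups, but no source calls them pairs.

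Members, gene lists and tests were chosen with earlier results of these data known. Named were members at an unadjusted p under 0.05, the 3 highest and lowest per compartment by fold change and by level in Mock, every gene of the short lists, Atf4, the kinases upstream of it, and the 3 highest and lowest ATF4 targets. Farsa, Farsb, Yars2, Nars, Sars, Gars, Iars, Yars, Kars, Cars2, Sars2, Wars2, the single markers and Nrn1 were named after their values were seen. A gene of the short lists and a promoter match are not reported here. Positions came from GENCODE for GRCm38 by identifier for 36 of 36 genes, and promoters from RefSeq (GRCm38.p6) by gene symbol. Software was Python 3.11.15 with scipy 1.17.1, numpy 2.4.6, pandas 2.3.3 and, for plots, matplotlib 3.10.9, and R 4.3.3.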

Additional observations from a re-analysis of the deposited data

How the results depend on the processing

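No synthetase had an adjusted p under 0.05 in any alternative fit. The median log2 fold change of the cytosolic genes stayed between 0.16 and 0.24 without each library in turn, and that of the mitochondrial genes between 0.0302 (without Mock library 1) and 0.23. The latter was 0.09 in edgeR and 0.05 after the length and GC correction, with 9 of 16 genes above 0. The number of cytosolic genes higher at an unadjusted p under 0.05 went from 3 to 7 under scaling to library size, which moved the median of all genes to 0.08 and in which 9.03% of all genes were higher, and to 5 after the length and GC correction (6.8% of all genes), an alternative added after seeing the data. It was between 2 and 7 without each library, beside 3.9% to 7.71% of all genes. The number lower went from 1 to 2 in edgeR, in DESeq2 and under TMM scaling, beside 6.33%, 6.18% and 6.28% of all genes. It went to 0 under library size scaling (4.36% of all genes) and was between 0 and 2 without each library (4.24% to 5.85%). The number of mitochondrial genes higher went from 0 to 1 (Rars2) after the length and GC correction, beside 6.8% of all genes.

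The sign turned in at least 1 alternative for 10 of the 36 genes. It turned for Iars2 (0.003 under library size scaling, -0.16 to 0.0093 without each library), for Lars2 (-0.0381 in edgeR, -0.0294 in DESeq2, -0.36 to 0.65 without each library) and for Mars2 (-0.0771 after the length and GC correction). For Tars2 it turned in edgeR (-0.0178), in DESeq2 (-0.0088), under TMM scaling (-0.0119), after the length and GC correction (-0.0345) and without single libraries (-0.0891 to 0.0937). Farsa turned in edgeR, in DESeq2, under TMM scaling, after the length and GC correction and without Mock library 1, HIF-1α-KD library 1 or HIF-1α-KD library 3 (lowest value -0.08). Sars2 turned in edgeR, in DESeq2, under TMM scaling, after the length and GC correction and without Mock library 1 or HIF-1α-KD library 1 (lowest value -0.31). Wars2 turned under library size scaling and without Mock library 1 or HIF-1α-KD library 2 (highest value 0.05). Without single libraries, Kars (-0.0095), Cars2 (-0.09) and Sars (0.03) turned too. The causes were not tested.

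Libraries with the same replicate number correlated at -0.14, -0.12 and 0.02 in their deviations from the group means. With a block for replicate number, 4 members had an unadjusted p under 0.05 (3 cytosolic genes higher, 1 lower), and 1324 of all genes in place of 1529.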
